A study of Mus musculus with 5 samples.

Results

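The genes described here lie on mouse chromosome 14 between 40 and 66 Mb. Members were the protein-coding genes that start in this interval (GRCm38, GENCODE M21 annotation) and have a mean of at least 2 TPM (a transcript's length-corrected share of the RNA, scaled to the same total in each sample) over the 5 samples. Bmp4, Otx2, Lats2, Gata4, Sox7, Tdh and the mitochondrial ribosomal protein genes were left out by name. This gave 122 members of the 127 genes of the interval at that level, of 400 protein-coding genes annotated in the interval at any level, and of 12518 genes tested in the whole data set. The interval itself was chosen because its genes were known to be lower in C3G KO cells, so the members' values in this contrast are a description. Where a member is said to be called lower or higher, the call comes from the fit over all genes and is no evidence about the interval. What the choice did not fully fix is how uniform the lower level was, which members departed from it, and in which direction. Among the genes left out by name, Bmp4 was lower in this contrast than every member. Otx2 was higher than every member, as was Gata4, which lay under the minimum level. The spread and the extremes of the members are therefore partly set by the choice.

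RNA was sequenced from mouse embryonic stem (ES) cells of the line E14Tg2a, grown on gelatin in medium with serum and LIF, the cytokine that maintains their self-renewal. There were 3 WT samples, which are the parent line, and 2 C3G KO samples, labelled C3G-/-, in which CRISPR had been used to knock a targeting vector into the C3G gene, Rapgef1, which encodes an exchange factor for Rap GTPases. The labels do not say from which null clone each C3G KO sample was grown, and whether the samples of a group came from separate cultures is known only from the study's description of them as independent. In the study, the C3G null clones were selected with puromycin and picked as individual colonies. The study's vector control is not among the samples. Selection and cloning thus go together with genotype here and cannot be told apart from it. No other treatment or time point was included. Values are scaled TPM, the deposited TPM of all transcripts of a gene summed and divided by the median-of-ratios factor of the sample, so they are corrected for transcript length and can be compared between genes. The log2 ratio is the log2 of the mean scaled TPM in C3G KO over that in WT cells, without a pseudocount. Since TPM do not record how many reads a sample had, its depth cannot be given, and precision is limited by the small number of samples.

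The targeted gene, Rapgef1, lay between 8.45 and 8.73 scaled TPM in WT samples, while C3G KO samples had 6.34 and 6.13, a log2 ratio of -0.47. In the study, primers for the deleted exons detected no transcripts in the null clones, while primers for C-terminal exons did. Neither full-length nor truncated C3G protein was seen there. The gene sum used here does not separate truncated from full-length transcripts. The deposited TPM differed between the groups in composition, since small non-coding RNAs held 62.9% to 67.2% of the TPM in WT samples and 69.6% and 77.8% in C3G KO samples, and the scaling factors were 1.10 to 1.34 for WT and 0.619 and 0.906 for C3G KO. The ES cell markers Pou5f1, Sox2, Nanog, Esrrb, Zfp42, Dppa5a, Utf1 and Tdgf1 were detected in every sample and summed to 1665 to 2079 scaled TPM in WT and 2551 and 2862 in C3G KO samples. Most of each sum was Dppa5a, with 979 to 1288 in WT and 1713 and 2023 in C3G KO samples. Dppa5a was called higher, and none of the other ES cell markers was called. The 7 fibroblast or feeder markers summed to 3.71 to 4.43 in WT and 1.66 and 1.71 in C3G KO samples, with Lum at 0 in 4 of the 5 samples. The 4 endoderm markers summed to 0.842 to 1.13 in WT and 2.12 and 2.37 in C3G KO samples, the 3 mesoderm markers to 5.17 to 6.32 and to 2.55 and 3.72, and the 3 neural markers, mostly Tubb3, to 12.2 to 13.9 and to 23.2 and 25.5. The lower mesoderm sum rested on T, which had a log2 ratio of -1.69 and was called lower. Eomes, with 0.041, was not called, and Mesp1 was too low to be tested. The part of fibroblast, endoderm, mesoderm or neural cells in the values of the members was not tested. In bulk RNA, fewer cells that express a gene and less RNA per cell cannot be told apart, nor can fewer copies of a gene and less RNA from each copy.

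As background, genes that neighbor each other on a chromosome usually have unrelated functions, and the members are such a mixture of enzymes, adhesion proteins, proteasome subunits and nuclear proteins. Each is read from a promoter. The RNA level of a gene reflects how many copies the cell holds, how often each is transcribed and how long the RNA lasts. RNA levels alone do not separate these, and no measurement of DNA or chromatin was analysed here.

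The stretches below were chosen to let the promoters of members at both ends of the response be read side by side. They are taken from RefSeq (GRCm38.p6), run 5′ to 3′ on the strand of the gene and end before its first exon. Capitals mark matches, on either strand, to CCAAT, the letters of the box bound by NF-Y, to TATAAA, those of a core element that recruits the basal machinery, to GGGCGG, those known from Sp1 sites, and to CACGTG, those of an E-box. Mmp14 (chr14:54431348-54431597, plus strand) and Tgm1 (chr14:55713495-55713742, minus strand) belong to the members with the lowest log2 ratio, Shisa2 (chr14:59625031-59625280, plus strand) and Hnrnpc (chr14:52104029-52104271, minus strand) to those with the highest, and the last line is the whole stretch between the starts of Osgep and Apex1 (chr14:50924894-50924967, shown on the minus strand, that of Osgep), a pair that moved alike.
Mmp14: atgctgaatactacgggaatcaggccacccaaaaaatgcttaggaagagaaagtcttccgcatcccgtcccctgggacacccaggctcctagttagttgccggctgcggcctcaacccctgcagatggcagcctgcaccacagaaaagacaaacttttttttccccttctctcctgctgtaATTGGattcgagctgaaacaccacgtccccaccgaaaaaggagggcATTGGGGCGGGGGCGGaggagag
Tgm1: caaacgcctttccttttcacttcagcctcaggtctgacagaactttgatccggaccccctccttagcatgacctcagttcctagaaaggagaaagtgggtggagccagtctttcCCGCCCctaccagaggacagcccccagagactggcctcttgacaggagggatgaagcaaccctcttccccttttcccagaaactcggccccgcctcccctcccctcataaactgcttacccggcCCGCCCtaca
Shisa2: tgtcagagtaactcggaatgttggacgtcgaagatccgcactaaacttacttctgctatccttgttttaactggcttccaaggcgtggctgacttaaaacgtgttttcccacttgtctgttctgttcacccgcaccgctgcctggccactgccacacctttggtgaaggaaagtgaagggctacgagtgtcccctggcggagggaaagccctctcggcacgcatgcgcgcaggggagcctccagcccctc
Hnrnpc: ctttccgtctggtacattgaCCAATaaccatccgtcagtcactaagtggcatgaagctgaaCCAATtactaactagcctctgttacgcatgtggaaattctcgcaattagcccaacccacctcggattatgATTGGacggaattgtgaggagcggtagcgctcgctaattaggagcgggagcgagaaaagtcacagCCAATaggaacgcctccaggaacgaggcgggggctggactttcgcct
Osgep and Apex1: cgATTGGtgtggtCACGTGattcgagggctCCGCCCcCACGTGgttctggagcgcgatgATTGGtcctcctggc
In the Mmp14 stretch a CCAAT match and a GGGCGG match share a base, and in the Shisa2 stretch none of the motifs occurred. Counted over the 250 bases before the start, Mmp14 had 10 CpG, Tgm1 7, Shisa2 14 and Hnrnpc 17. A promoter was found for 98 of the 122 members, with a median of 15 CpG and 59.6% GC, against 17 CpG and 60.8% GC for 6952 coding genes of other chromosomes. CCAAT was present in 35.7% of the members' promoters and 38.1% of the others, TATAAA in 3.06% and 5.31%, GGGCGG in 58.2% and 64.5%, and CACGTG in 11.2% and 9.34%. A match describes letters only and is not a measured binding site.

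The lower level was shared by nearly the whole interval and by both C3G KO samples. The median log2 ratio of the members was -0.84 with quartiles of -1.05 and -0.62, which is a median of 56.0% of the WT level, and 119 of 122 members lay below 0. In limma's test over all genes with Benjamini-Hochberg adjustment, 113 members were called lower, 1 higher and 8 neither, where of all 12518 genes 16.6% were called lower, 14.1% higher and 69.3% neither. Both C3G KO samples lay below all WT samples for 114 members, with 29.3% of all genes doing so, and above them for 2 members, with 29.5% of all genes doing so. The interval was chosen on this contrast, so nothing is read from these counts.

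**Figure D1:**
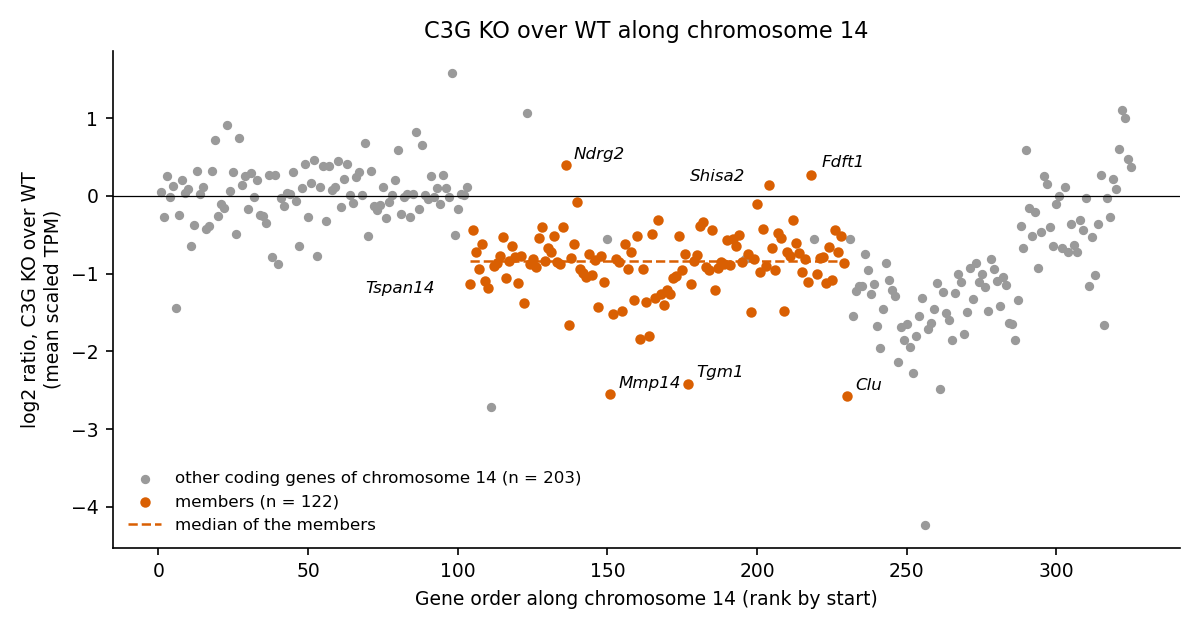
Log2 ratio of mean scaled TPM (C3G KO over WT) on the y axis for each protein-coding gene of chromosome 14 with a mean of at least 2 TPM, in order of start on the x axis, with the 122 members in orange, the 203 other genes in gray and the members' median of -0.84 as a dashed line. Values lie around 0 up to the first member, Tspan14, drop to near -0.84 over the members, are lower still over the genes that follow and return toward 0 at the end, while Ndrg2, Fdft1 and Shisa2 stay above 0 and Clu, Mmp14 and Tgm1 lie below -2.

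Summed over all 122 members, the scaled TPM came to 1683, 1756 and 1752 for WT and to 1032 and 1068 for C3G KO cells. The WT samples differed little among themselves, with median log2 ratios of -0.021, 0.023 and 0.019 for each WT sample against the other WT samples and a median coefficient of variation of 5.54%. Taken alone, C3G KO replicate 1 gave a median log2 ratio of -0.89 with 119 members below 0, and C3G KO replicate 2 gave -0.81 with 117 below 0. The difference between the C3G KO samples for a single member had a median size of 0.17 on the log2 scale. It was largest for Mettl17, a mitochondrial methyltransferase-like protein, which had 4.83, 4.76 and 4.29 scaled TPM in WT samples but 2.36 and 4.68 in the C3G KO samples. For Mettl17 the groups overlapped, and C3G KO replicate 2 was at the WT level.

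Most members kept between 50% and 75% of their WT level. C3G KO cells had 50% to 75% of the WT level for 76 members (62.3%), less than 50% for 35, 75% to 100% for 8, and 100% or more for 3. Among 8725 coding genes of other chromosomes with the same minimum level, 9.05% lay between 50% and 75%, 2.84% lay below 50%, and 345 (3.95%) had a log2 ratio at or below the members' median. The members varied around their own median about as much as genes elsewhere varied around theirs, with an interquartile range of 0.43 against 0.41 and an SD of 0.45 against 0.46. The median elsewhere was 0.025. The members' spread lacks the genes left out by name, among them Bmp4 (-2.71) and Otx2 (1.07), while no gene elsewhere was left out by name.

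**Figure D2:**
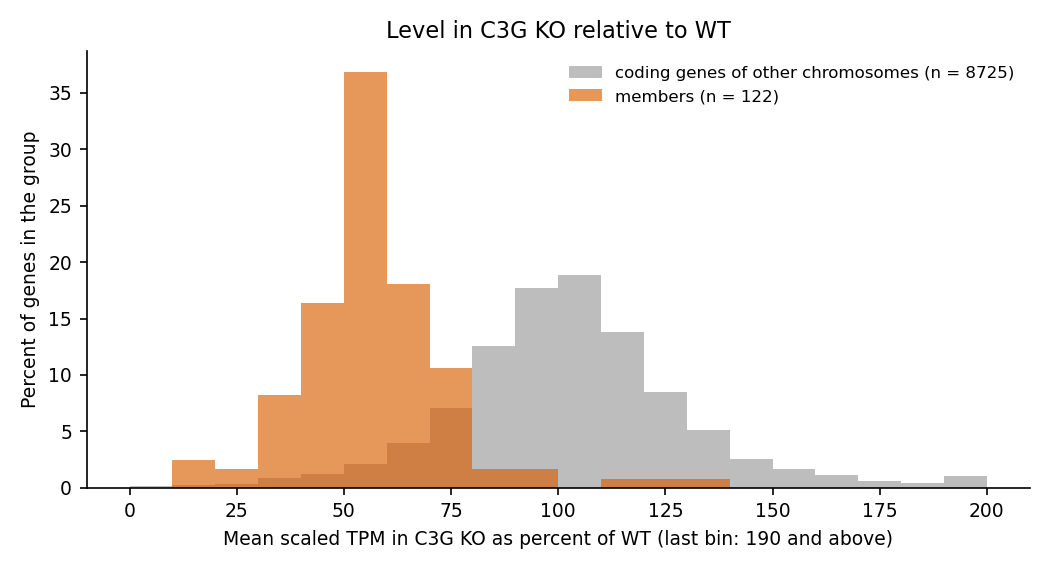
Mean scaled TPM in C3G KO as a percent of WT (x axis, bins of 10 percentage points, the last bin holding all higher values) against the percent of genes in each group (y axis), for the 122 members in orange and 8725 coding genes of other chromosomes in gray. The members peak just above 50% with a median of 56.0%, and the other genes peak around 100%.

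The position along the chromosome was examined next. The last genes before the interval, Ccser2 and Ghitm, had log2 ratios of 0.016 and 0.12, and neither was called. The first member, Tspan14, a tetraspanin of the cell surface that starts at 40906445, lay 3.79 Mb farther along and had 6.28, 6.38 and 7.07 scaled TPM in WT samples and 3.25 and 2.74 in C3G KO samples, a log2 ratio of -1.14. No protein-coding gene of the minimum level started in the 3.79 Mb between Ghitm and Tspan14, and the next member started 4.38 Mb after Tspan14. Fam213a, a gene under the minimum level that starts at 40993740, had a log2 ratio of -0.46 and was not called. Since Tspan14 is a single gene, the place where the values changed is not settled. In windows of 5 Mb, which here include the genes left out by name, the median log2 ratio was -0.85 from 45 to 50 Mb (22 genes), -0.83 from 50 to 55 Mb (35 genes), -0.88 from 55 to 60 Mb (43 genes) and -0.75 from 60 to 65 Mb (20 genes). Within the interval the values therefore showed no steady trend, and the Spearman correlation of the members' log2 ratio with start position was 0.082 over 122 genes.

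Past the last member, Clu, which starts at 65968483, the level dropped further. Its neighbors on that side, Ephx2 (a soluble epoxide hydrolase) and Ptk2b (the tyrosine kinase Pyk2), had log2 ratios of -0.55 and -1.54. From 66 to 80 Mb the median log2 ratio was -1.33 over 57 genes, against -0.84 for the members, and from 80 Mb on it was -0.29 over 38 genes. Before 40 Mb it was 0.023 over 103 genes. The medians of the other chromosomes ranged from -0.030 (chromosome 7) to 0.12 (chromosome 13). These are descriptions of the same contrast and were not tested.

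The values hardly followed the properties of the genes that could be measured. Over the 122 members the Spearman correlation of the log2 ratio was 0.11 with the WT level, -0.20 with transcript length and -0.23 with GC content. Over 8725 coding genes of other chromosomes it was 0.17, -0.33 and -0.14. Genes within a sample share its library and are not independent, so these are descriptions. Members next to each other were not more alike than members far apart, since the median difference in log2 ratio was 0.34 in size for 121 adjacent members and 0.34 for all 7381 pairs.

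Head-to-head pairs, which start within 1000 bases of each other on opposite strands, did not move more alike than other members either. The 12 such pairs had a median difference of 0.39 in size. Osgep, which modifies transfer RNA, and Apex1, the main endonuclease of base excision repair, start 75 bases apart and had log2 ratios of -0.66 and -0.72. Dhrs1, a short-chain dehydrogenase, and Nop9, a nucleolar RNA-binding protein, start 3 bases apart and had -0.84 and -0.76. In contrast, Dad1, a subunit of the oligosaccharyltransferase, and Abhd4, a lipid hydrolase, start 84 bases apart and had -0.83 and -1.42. Setdb2, a lysine methyltransferase-like protein, and Cab39l, an adapter of the LKB1 kinase complex, start 88 bases apart and had -0.98 and -0.43. Wdhd1, a replication factor, and Socs4, an adapter of ubiquitin ligases, start 74 bases apart and had -0.53 and -1.06.

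Among the members farthest above the median, 3 lay beyond 1.5 interquartile ranges from the upper quartile (0.022). Ndrg2 (ENSMUSG00000004558, chr14:51905271-51914158), an N-myc downstream-regulated protein, had 3.33, 3.75 and 3.63 scaled TPM in WT samples and 4.46 and 4.92 in C3G KO samples, a log2 ratio of 0.39. Both C3G KO samples lay above all WT samples, and Ndrg2 was the only member called higher. Its fold change turned negative in TPM as deposited (-0.24 in limma's fit), which are not scaled. In that setting 7109 of 12518 genes were called lower and 181 higher. The call of Ndrg2 was lost when WT replicate 1, WT replicate 2 or C3G KO replicate 2 was left out. The limma log2 fold changes were then 0.27, 0.33 and 0.26. Its leading coding transcript, Ndrg2-202, had 2.35, 2.75 and 3.03 in WT and 2.91 and 3.55 in C3G KO samples, which overlapped.

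Fdft1 (ENSMUSG00000021273, chr14:63145150-63179578), which encodes squalene synthase, the enzyme of the first committed step toward cholesterol, had 9.51, 8.70 and 9.18 scaled TPM in WT samples and 11.7 and 10.2 in C3G KO samples, a log2 ratio of 0.27. The groups did not overlap, Fdft1 was not called, and its fold change was negative in the unscaled TPM as deposited (-0.39 in limma's fit). Of the 31-base words of its leading transcript 47.5% also occurred in other genes, namely its neighbor Ctsb and Gm6781, and the part of that shared sequence in the values was not tested. This transcript, Fdft1-201, had a log2 ratio of 0.31. Shisa2 (ENSMUSG00000044461, chr14:59625308-59631660), an endoplasmic reticulum protein that holds back Wnt and FGF receptors, had 2.01, 2.07 and 1.67 in WT samples and 1.94 and 2.28 in C3G KO samples, which overlapped. Its log2 ratio of 0.14 was not called. The fold change in limma's fit turned negative in the unscaled TPM as deposited (-0.36) and after rescaling to protein-coding TPM (-0.053).

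The most abundant member was also among the least changed. Hnrnpc, a nuclear protein that packages nascent transcripts and guides splicing, had 136, 152 and 152 scaled TPM in WT samples and 140 and 138 in C3G KO samples, a log2 ratio of -0.07. The groups overlapped. Its coding transcripts did not move together, since the 4 most abundant, Hnrnpc-211, Hnrnpc-207, Hnrnpc-206 and Hnrnpc-201, had log2 ratios of 0.07, -0.10, -0.05 and 0.03, while the rarer Hnrnpc-210 went from a mean of 3.29 to 0.95 scaled TPM (-1.80) and Hnrnpc-209 from 3.0 to 1.23 (-1.28). Of the 31-base words of its leading transcript, 32% also occurred in transcripts of other genes, 3 in all, and the part of that shared sequence in the values was not tested.

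Phf11d, a member of a family of PHD finger proteins encoded side by side, had 4.17, 4.35 and 4.39 scaled TPM in WT samples and 3.73 and 4.32 in C3G KO samples, a log2 ratio of -0.10, and it shared 28.7% of its words with its relatives. The next highest members were Spryd7 (-0.31), Dcaf11, a substrate receptor of ubiquitin ligases (-0.31), and Nfatc4, a calcium-regulated transcription factor (-0.34). Nfatc4 was called lower, but not when any of the 5 samples was left out. The 8 members called neither lower nor higher were Fdft1, Shisa2, Hnrnpc, Phf11d, Spryd7, Dcaf11, Mettl17 (-0.39) and Tmem253, a membrane protein with 3.04, 3.43 and 2.33 scaled TPM in WT samples and 2.38 and 1.45 in C3G KO samples (-0.62).

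**Figure D3:**
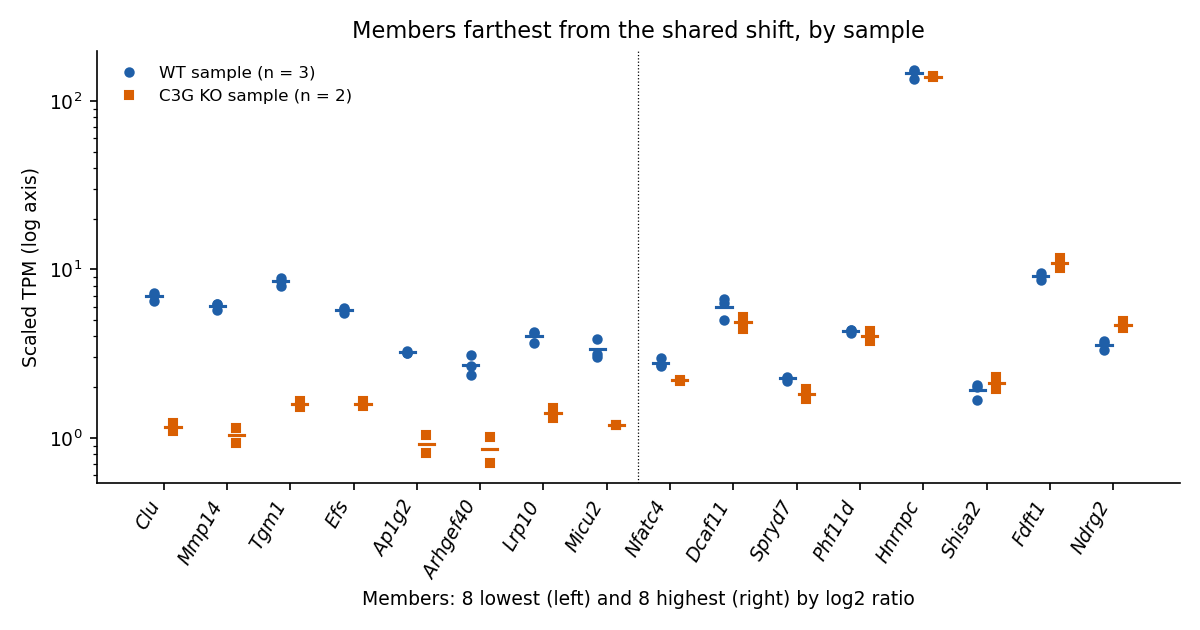
Scaled TPM (y axis, log scale) in each of the 3 WT samples (blue circles) and 2 C3G KO samples (orange squares) for the 8 members with the lowest log2 ratio, left of the dotted line, and the 8 with the highest, right of it, with short bars at the group means. On the left all C3G KO samples lie below all WT samples, and on the right the groups overlap for Dcaf11, Phf11d, Hnrnpc and Shisa2 and are reversed for Fdft1 and Ndrg2.

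At the other end, 5 members lay beyond 1.5 interquartile ranges from the lower quartile (-1.70). Clu (ENSMUSG00000022037, chr14:65968483-65981547), the secreted chaperone clusterin, had 6.48, 7.05 and 7.20 scaled TPM in WT samples and 1.23 and 1.09 in C3G KO samples, a log2 ratio of -2.57. Mmp14 (ENSMUSG00000000957, chr14:54431612-54445364), a membrane-anchored protease that cleaves collagen and activates Mmp2, had 6.25, 6.20 and 5.72 in WT samples and 0.937 and 1.14 in C3G KO samples, a log2 ratio of -2.55. Tgm1 (ENSMUSG00000022218, chr14:55700009-55713926), a transglutaminase that cross-links proteins in epithelia, had 7.99, 8.52 and 8.92 in WT samples and 1.65 and 1.53 in C3G KO samples, a log2 ratio of -2.41. For these 3 genes C3G KO cells had 16.8%, 17.1% and 18.8% of the WT level, and every C3G KO sample lay far below every WT sample. They are not neighbors, as other members with log2 ratios near the median lie between them.

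The leading transcript of each was low as well. Clu-201 went from a mean of 6.51 to 1.08 scaled TPM, Mmp14-201 from 5.24 to 0.91 and Tgm1-203 from 7.11 to 1.5. Another coding transcript of Tgm1, Tgm1-202, went from 1.32 to 0.09. Efs, an adapter protein of the Cas family that binds Src-family kinases and focal adhesion kinase, had 5.49, 5.86 and 5.84 scaled TPM in WT samples and 1.55 and 1.64 in C3G KO samples, a log2 ratio of -1.84. Ap1g2, a subunit of a clathrin adaptor complex, had a log2 ratio of -1.80, and 24.8% of its words occurred in other genes. Arhgef40 (-1.65), Lrp10, a receptor of the LDL receptor family (-1.52), and Micu2, a gatekeeper of mitochondrial calcium uptake (-1.49), followed, and in each the groups did not overlap.

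Described by role, every list of members had a median log2 ratio below 0, where the median of all genes tested was 0.0061, and the ranges of the lists overlapped. Over all members 113 of 122 were called lower, against 16.6% of all genes, and since the interval was chosen on this contrast the counts of calls by list that follow say nothing particular to a role. The membrane, adhesion and secreted proteins had the lowest median, -1.29 over 6 members, all called lower (113 of 122 over all members). They ran from Clu and Mmp14 through Tnfrsf19, a receptor of the TNF receptor family (-1.48), the amino acid transporter Slc7a7 (-1.10) and the integrin activator Fermt2 (-1.09) to galectin-3, Lgals3 (-0.64). Lgals3 had 15.7, 16.2 and 17.5 scaled TPM in WT samples and 11.6 and 9.56 in C3G KO samples. Without Clu and Mmp14 the remaining 4 values of this list lay between -1.48 and -0.64, inside the range of the other lists.

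All 15 members of the secretory path, endosomes and autophagy were called lower, beside 113 of 122 over all members and 16.6% of all genes, with a median of -1.06 and a range from Ap1g2 (-1.80) to Ero1l (-0.44), the oxidase that forms disulfide bonds in the endoplasmic reticulum. Ktn1, the kinectin of the endoplasmic reticulum, was an abundant member near the low end of this list (27.6 ± 1.19 scaled TPM (SD, n = 3) in WT and 10.7 ± 0.050 (SD, n = 2) in C3G KO cells, -1.37). Ctsb, the lysosomal protease cathepsin B, had -1.10 and Atg14, an autophagy initiation factor, had -0.77. Ktn1, Ctsb and Atg14 were picked after their values were seen.

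Of the proteasome and ubiquitin genes, all 11 were called lower, beside 113 of 122 over all members and 16.6% of all genes, with a median of -0.94. Psme1 and Psme2, which form the 11S activator of the proteasome and lie beside each other, had log2 ratios of -1.26 and -1.40. The values were less negative for Psmb5, a catalytic subunit of the proteasome proper (-0.61), and Psmc6, an ATPase of its regulatory particle (-0.71). Psme2 had 19.3, 17.9 and 23.2 scaled TPM in WT samples and 7.44 and 7.86 in C3G KO samples. Psmb5 had 56.7, 66.9 and 68.3 in WT samples and 41.6 and 42.0 in C3G KO samples. The groups did not overlap for either gene. For Psme2 66.2% and for Psmb5 74.0% of the words of the leading transcript occurred in other genes, near-identical copies among them, so how reads were divided between the copies is uncertain. The ubiquitin-like protein Nedd8 had the highest value of the list, -0.52.

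Of 16 genes of RNA processing and translation 14 were called lower, beside 113 of 122 over all members and 16.6% of all genes, with a median of -0.70, from Tox4, a subunit of a phosphatase complex that acts on RNA polymerase II (-1.04), to Hnrnpc. Mettl3, the enzyme that writes N6-methyladenosine into messenger RNA, had 8.52, 8.35 and 8.42 scaled TPM in WT samples and 5.27 and 4.81 in C3G KO samples (-0.74), and Prmt5, an arginine methyltransferase, had -0.81. Of 14 genes of chromatin and transcription, a list that also holds Arhgef40, 13 were called lower, again beside 113 of 122, with a median of -0.96 and with Phf11d as the highest. Chd8, a chromatin remodeler, had -0.99 and Supt16, a subunit of the histone chaperone FACT, had -0.94. In the same list Ajuba, a LIM protein that shuttles between cell junctions and the nucleus, had 31.6, 32.4 and 31.8 scaled TPM in WT samples and 11.2 and 11.8 in C3G KO samples, a log2 ratio of -1.48. Mettl3, Prmt5, Chd8, Supt16 and Ajuba were picked after their values were seen.

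All 7 members of DNA repair, replication and telomeres were called lower, beside 113 of 122 over all members and 16.6% of all genes, with a median of -0.73 and the narrow range from Parp2, an enzyme that signals DNA breaks (-0.83), to Ccnb1ip1, a ubiquitin ligase of meiotic recombination (-0.39). Apex1, the second most abundant member in WT cells, had 74.7, 89.2 and 89.9 scaled TPM in WT samples and 54.7 and 48.2 in C3G KO samples, a log2 ratio of -0.72. Of its words 69.6% occurred in other genes. All 9 members of mitosis and cell cycle were called lower, beside the same shares, with a median of -0.85, from the centriole protein Cenpj (-1.21) to the cohesin acetyltransferase Esco2 (-0.51). The 3 members of nuclear transport were also called lower, namely Ipo4 (-1.26), Kpna3 (-0.77) and Xpo4 (-0.64), where importins carry cargo into the nucleus and Xpo4 carries it out.

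Of 10 members of mitochondria and metabolism 9 were called lower, beside 113 of 122 over all members and 16.6% of all genes, with a median of -0.80, from Micu2 to Fdft1, and the lower genes included enzymes of different pathways such as Pck2, the mitochondrial phosphoenolpyruvate carboxykinase (-1.31), and Pnp, which breaks down purine nucleosides (-0.86). Pck2 differed between the C3G KO samples, with 2.47 and 1.48 scaled TPM against 4.25, 4.96 and 5.47 in WT samples. All 4 members of apoptosis and cell death were called lower, beside the same shares, with a median of -0.89. They were Bcl2l2, which encodes the survival protein Bcl-w (-1.34), Acin1 (-0.95), Parp2 (-0.83) and Ripk3, the kinase of necroptosis (-0.38). Pck2 and Pnp were picked after their values were seen.

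Ripk3 was a case in which the gene sum hid its transcripts. The coding transcript Ripk3-201 had 1.84, 2.19 and 2.19 scaled TPM in WT samples and 1.12 and 1.2 in C3G KO samples, a log2 ratio of -0.84. The short retained-intron transcript Ripk3-206 had 0.34, 0.09 and 0.00 in WT samples and 0.81 and 0.61 in C3G KO samples. It made up 5.28% of the gene's scaled TPM in WT and 34.1% in C3G KO cells. The call of the gene was lost when any of the 5 samples was left out. Levels of single transcripts this low rest on the division of few reads among isoforms by the authors' software, and their counting error is unknown.

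**Figure D4:**
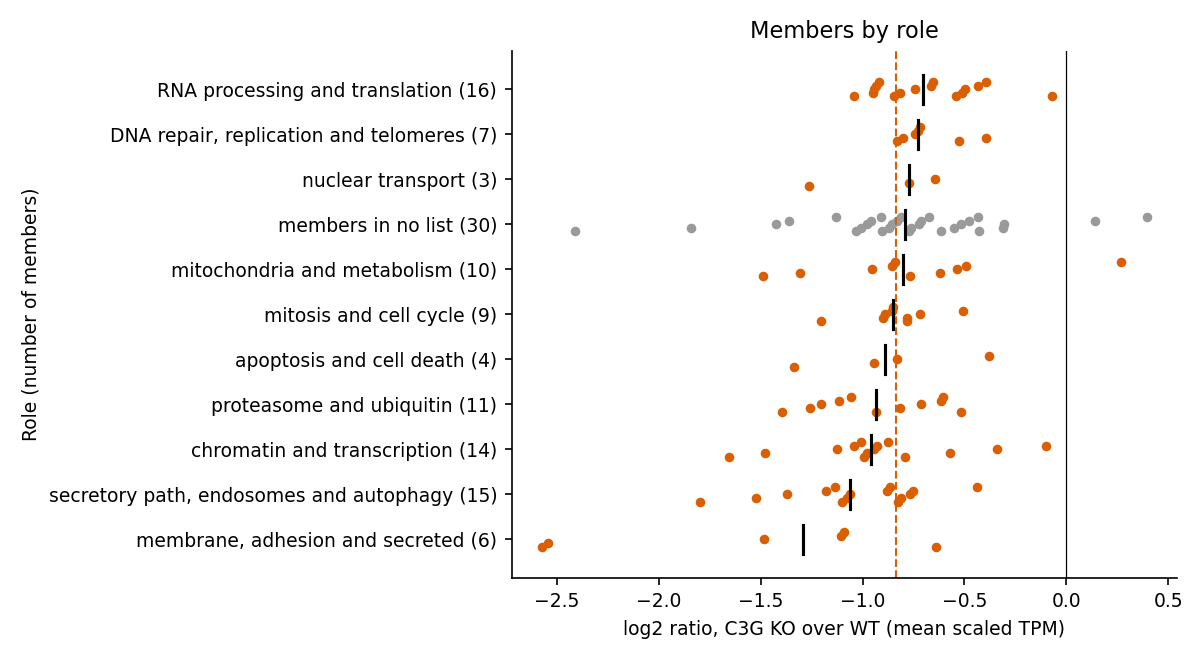
Log2 ratio of mean scaled TPM, C3G KO over WT (x axis), for each member (points, shifted vertically for visibility) by role (y axis, number of members in parentheses, a gene may stand in more than one list), with a black bar at the median of each list, a dashed line at the members' median of -0.84 and members in no list in gray. List medians run from -0.70 for RNA processing and translation to -1.29 for membrane, adhesion and secreted proteins, and the points of all lists overlap.

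The 30 members in no list had a median of -0.79, with 25 called lower, 1 higher and 4 neither, and held both Tgm1 and Ndrg2. Over all members 113 of 122 were called lower, and of all genes 16.6% were called lower, 14.1% higher and 69.3% neither. The 2 members just above the minimum level were Shisa2 and Socs4, each with a mean of 2.06 deposited TPM, and the 2 genes just below it were Msra, with 1.96 TPM and a log2 ratio of 0.067, and Thtpa, with 1.79 TPM and -1.04. Shared sequence was common, as 39 of the 122 members shared at least 10% of their words with other genes. Without them, an alternative added after seeing the data, 83 members remained with 77 called lower and a median log2 ratio of -0.83. Of the genes of the interval left out by name, Bmp4 had a log2 ratio of -2.71, Lats2 -2.20, Tdh -0.55, Mrpl52 -0.55, Mrpl57 -0.82 and Otx2 1.07. Gata4 (0.40, with means of 0.71 scaled TPM in WT and 0.93 in C3G KO cells) and Sox7 (0.042) did not pass the filter.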

How the data were processed

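RNA was measured in 3 WT and 2 C3G KO samples of E14Tg2a ES cells. The authors aligned paired-end reads to GRCm38 and deposited 1 table of TPM for 142647 Ensembl transcripts. The submitters' processing notes name bcl2fastq 2.20, FastQC 0.11.7, STAR 2.5.1b and RSEM 1.2.31. Read counts were not used here, so the study's count-based test was replaced by limma on a log scale. TPM of the 141524 transcripts found in GENCODE M21 were summed to 55147 symbols, 1123 transcripts were not matched, and each sample was divided by its median-of-ratios factor. Because TPM give each sample the same total, a larger share of small RNAs lowers all other values before this scaling. Genes with at least 1 TPM in at least 2 samples were fitted with limma 3.58.1 (R 4.3.3, trend, two-sided) on log2(scaled TPM + 1), and calls are at an adjusted p under 0.05. The pseudocount of 1 understates the fold changes of low genes. The code was tested on simulated data. Tables and figures used Python 3.11.15, pandas 2.3.3 and matplotlib 3.10.9.

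The members, role lists, markers and tests were chosen with earlier results of these data known. Named are the 8 members with the highest and the 8 with the lowest log2 ratio, the extremes of each list, the 3 most abundant in WT, the first and last, those next to each limit, Rapgef1 and the genes left out by name; others, such as partners of head-to-head pairs and those so marked, were chosen after their values were seen. Shared sequence is the percent of 31-base words of the leading transcript found in transcripts of other genes. Alternatives changed the pseudocount, filter, scaling, trend, transcripts summed, length and GC correction, samples and replicate block.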

Additional observations from a re-analysis of the deposited data

How the results depend on the processing

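The members were lower under every alternative run, but the interval was chosen on this contrast in the same samples. Their staying lower is therefore no test of the interval. Under a filter of 5 TPM 90 of the 95 members tested were called lower, beside 1145 of 7525 genes. With a replicate block 110 members were called lower, beside 1816 of 12518 genes. Most other counts of calls moved with the scaling and the filter. The members' median relative to coding genes of other chromosomes, added after seeing the data, was -0.86 and ranged from -0.90 to -0.83. The median log2 ratio of -0.84 became -1.5 in TPM as deposited and -1.06 after rescaling to protein-coding TPM (-0.88 to -0.81 without 1 replicate), and the median limma log2 fold change of -0.70 became -1.28 and -0.88 there, -0.83 and -0.46 with pseudocounts of 0.1 and 5, and -0.64 with protein-coding transcripts only (-0.73 to -0.69 without 1 replicate). The 1 member called higher became 0 without a filter, with a filter of 5 TPM, in TPM as deposited and after rescaling to protein-coding TPM, 0 to 1 without 1 replicate, and 2, Fdft1 being added, with protein-coding transcripts only and with the length and GC correction.

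Over all genes, 2083 lower and 1760 higher calls, 45.8% of calls being higher, became 7109 and 181 (2.48%) in TPM as deposited and 3732 and 707 (15.9%) after rescaling to protein-coding TPM, 1145 lower with a filter of 5 TPM, and 1351 to 1846 lower and 881 to 1528 higher without 1 replicate, the lowest without WT replicate 2. Without C3G KO replicate 1 they were 1373 and 967, and without C3G KO replicate 2 1423 and 999. In the segments under 40 Mb, 66 to 80 Mb and from 80 Mb on, medians of 0.023, -1.33 and -0.29 became -0.65, -1.99 and -0.95 in TPM as deposited, -0.20, -1.55 and -0.51 after rescaling, and 0.056, -1.26 and -0.20 with the length and GC correction. The first 2 were -0.011 and -1.30 with quantile normalization and 0.064 and -1.38 with protein-coding transcripts only, and without 1 replicate the last 2 were -1.35 to -1.28 and -0.32 to -0.20.

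Of 583 alternative values of 33 named members 539 kept direction and call, 27 lost and 12 gained the call, and 5 changed sign. These were Fdft1 (-0.39), Ndrg2 (-0.24) and Shisa2 (-0.36) in TPM as deposited, Shisa2 after rescaling (-0.053) and Phf11d without C3G KO replicate 1 (0.0036, with -0.16 as the lowest value without 1 replicate). TPM as deposited are not scaled, and 7109 of 12518 genes were called lower there. A negative sign in that setting is therefore not read as a lower level of these genes. The cause of the other sign changes was not tested. Replicate numbers are shared by only 2 pairs, whose deviations correlated at -0.18 and 0.18. The deviations of 2 C3G KO samples from their mean mirror each other, so these values cannot decide whether the numbers pair the samples. With the replicate block 1816 genes were called lower and 1489 higher. Together with the length and GC correction these counts were 1546 and 1550, and 103 members were called lower there. Without a C3G KO sample the lone one left is assumed to vary like the WT group. TPM hold no depth, so no counting limit can be given.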

Other observations

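Other genes of the interval were not members but lay among them. Besides Lats2, Gata4 and Sox7, which were left out by name, 270 protein-coding genes lay under a mean of 2 TPM, of which 27 passed the filter of the test and 243 did not. The 27 had a median log2 ratio of -1.08, and 26 lay below 0. They passed a filter that is easier to pass with a high WT level, so this is a description. Samd4, an RNA-binding translational repressor, had 2.22, 1.93 and 1.80 scaled TPM in WT samples and 0.08 and 0.14 in C3G KO samples, a log2 ratio of -4.14. Ltb4r2, a leukotriene receptor, had 1.54, 1.71 and 1.2 in WT samples and 0.18 and 0.21 in C3G KO samples, a log2 ratio of -2.94. Irf9, a transcription factor of the interferon response, had 1.90, 1.75 and 1.92 in WT and 0.82 and 0.70 in C3G KO samples, a log2 ratio of -1.29. For these 3 genes, Irf9 having been picked after its values were seen, both C3G KO samples lay below all WT samples, as for 29.3% of all genes. The deposited TPM in C3G KO samples were near the floor for Samd4 (0.05 and 0.13) and Ltb4r2 (0.11 and 0.19). Ratios without a pseudocount are uncertain there, and the log2 fold changes in limma's fit were -1.42 and -1.05.

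The interval also holds non-coding genes. The 4 long non-coding RNA genes that passed the filter had a median log2 ratio of -0.73 and all lay below 0. Dleu2, the host of a microRNA cluster, had 8.60, 7.74 and 7.73 scaled TPM in WT samples and 5.19 and 4.17 in C3G KO samples, a log2 ratio of -0.78. The 8 pseudogenes had a median of 0.20 and none was called, where 69.3% of all genes were not called. Gm1821, the most abundant of them, had 50.5, 60.2 and 54.2 in WT samples and 62.1 and 63.5 in C3G KO samples, a log2 ratio of 0.19. Rps19-ps1 and Rps19-ps2 had the same values in every sample, so they are not separate measurements. Trav5-2, a T cell receptor pseudogene, had a log2 ratio of -0.58, with both C3G KO samples below all WT samples. Processed pseudogenes copy genes from elsewhere, and whether their values come from reads of those genes was not tested. Rpph1, the RNA of RNase P, which starts between Ccnb1ip1 and Parp2, had 8998, 10786 and 13004 in WT samples and 25670 and 10714 in C3G KO samples, so its groups overlapped and the value rested on C3G KO replicate 1, in which small RNAs held 77.8% of the TPM.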
